A study of Mus musculus with 26 samples.

Results

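The genes described here encode the initiation and elongation factors of cytoplasmic protein synthesis in mouse T cells. The rule goes by name: every protein-coding gene in the deposited tables whose symbol begins with Eif or Eef, leaving out Eif2s3x, Eif2s3y, Eif1ax and Eif4ebp1. It found 64 genes among the 25814 in the tables and uses no measured value. A name rule takes in a few genes outside the ribosome's own cycle, such as Eif4a3 of the exon junction complex, Eef1e1 of the multisynthetase complex, and the lysine methyltransferases that modify elongation factors.

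The study profiled T cells sorted by flow cytometry from Peyer's patches, the lymphoid tissue of the small intestine, of C57Bl/6 mice, by sequencing of polyadenylated RNA in 26 libraries. One comparison, between diets, used CD4+ T cells from mice on a conventional diet (6 libraries) or an elemental diet (6 libraries), in which intact dietary protein is replaced by its building blocks, and its question is the effect of dietary antigen. The other used CD44+ T cells (7 libraries) and CD44- T cells (7 libraries), all from mice on the conventional diet. CD44 binds hyaluronan and marks antigen-experienced T cells. Whether CD44 cells were also gated on CD4, whether each library came from its own mouse and how old the mice were are not stated in the labels, so the p-values measure the spread between these libraries, which may be partly technical. The CD4+ libraries were made from 22 ng of RNA and the CD44 libraries from 1 ng with a low-input kit. Kit, input and cell population cannot be told apart, and no test was made across that divide.

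Initiation begins when eIF2 brings the initiator tRNA to the small ribosomal subunit, where eIF1, eIF1A, eIF3 and eIF5 hold it ready to read the start codon. The eIF4F complex, made of the cap-binding protein eIF4E, the scaffold eIF4G and the helicase eIF4A, recruits that subunit to the capped end of an mRNA. eIF2B recharges eIF2 with GTP, and kinases that phosphorylate eIF2 shut this step down under stress. In elongation eEF1A delivers each aminoacyl-tRNA, the eEF1B subunits recharge eEF1A, and eEF2 moves the ribosome along by a codon. T cells raise their translation on activation, with mTOR and Myc as known regulators.

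Some of these genes carry in their promoter the E-box CACGTG, the palindromic hexamer that Myc and its partner Max are known to bind. RefSeq promoters on GRCm38.p6, spanning 250 bases before to 50 bases after each annotated start, were found for 50 of the 64 genes, and both strands read the same for this motif. It occurred in 13 of those 50 genes (26%), against 8.09% of all 27025 genes with a promoter in the same table. Counted by promoter it occurred in 23.1% of 65 against 7.15% of all 32851. The 13 were Eef1akmt4, Eef2, Eef2k, Eif1b, Eif3a, Eif3f, Eif3k, Eif4a1, Eif4e, Eif4g1, Eif4h, Eif5a and Eif5a2. The background of all genes was not matched for expression or base composition. A match is a string of letters and not a measured binding site. The 3 core members of eIF4F all held it, and their windows are shown with that of Eef2, in the direction of transcription and with the E-box in capitals. The windows lie at chr3:138527177-138527236 on the plus strand (Eif4e), chr11:69672580-69672639 on the minus strand (Eif4a1), chr16:20672646-20672705 on the plus strand (Eif4g1) and chr10:81176561-81176620 on the plus strand (Eef2).
Eif4e: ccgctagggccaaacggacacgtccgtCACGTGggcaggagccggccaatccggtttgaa
Eif4a1: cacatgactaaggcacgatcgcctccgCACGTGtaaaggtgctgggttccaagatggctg
Eif4g1: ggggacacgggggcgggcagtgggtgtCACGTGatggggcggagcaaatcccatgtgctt
Eef2: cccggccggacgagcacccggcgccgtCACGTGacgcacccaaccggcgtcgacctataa
The motif shown began 64, 189, 54 and 43 bases before the annotated start of Eif4e, Eif4a1, Eif4g1 and Eef2. Eif4e held a further E-box 228 bases before its start, and Eif4g1 a further one 15 bases after its start. None of these 4 genes was called in either comparison below. Of the genes that were, only Eif3a was among the 13, and its motif began 22 bases after the annotated start. The promoter of Eef1a1 did not contain the hexamer within the window. Eif4a2, Eif4b and Eif4g3 were not among the 13 either, and Eif3e, Eif4e3 and Eef1d had no promoter in the table.

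Levels are given as TMM-scaled CPM, exon read counts as a share of the library after edgeR's scaling between libraries, and per kilobase of exon where genes are compared with each other. Elongation factors stood at the top in the conventional CD4+ libraries, and no such ranking is given for the CD44 libraries. In CD4+ cells on the conventional diet Eef1a1 reached 10619 ± 283 CPM per kilobase (SD, n = 6), Eef2 followed at 1799 ± 143, Eef1b2 at 1035 ± 213 and Eef1g at 962 ± 100, and the last 2 did not differ beyond their spread. Of the eIF3 subunits Eif3h was the most abundant at 659 ± 63.8 CPM per kilobase, and the scaffold subunit Eif3a was among the scarcest at 9.15 ± 2.97. The parts of eIF4F were unequal too: Eif4a1 stood at 409 ± 71.8 CPM per kilobase, Eif4e at 19.1 ± 0.861 and Eif4g1 at 7.22 ± 2.69. Eif4e1b, a paralogue of the cap-binding protein, had 0 reads in all 12 CD4+ libraries, which allows up to 0.183 CPM in the shallowest of them (counting error only), and the muscle and nerve isoform Eef1a2 averaged 0.0378 CPM in the conventional group.

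Eef1a1 alone made up 49.4% to 53.3% of the reads of the 64 genes in the conventional CD4+ libraries and 48.6% to 53.2% in the elemental ones. In the CD44- libraries it made up 23.2% to 46.7%, and in the CD44+ libraries 17.0% to 29.0%. All 64 genes together took 1.18% to 1.62% of exon reads in CD44+ libraries and 1.44% to 3.41% in CD44- libraries. Without Eef1a1 the ranges were 0.916% to 1.30% and 1.05% to 1.94%, so the overlap between the sorts was wider once that gene was set aside.

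Depth in exon reads was 16401589 to 25415205 for CD4+ libraries and 7180390 to 13378353 for CD44 libraries. Intronic reads were 3.33% to 4.61% of gene reads in CD4+ libraries but 20.6% to 29.0% in CD44+ and 9.39% to 27.0% in CD44- libraries, with CD44- replicate 2 lowest and CD44- replicates 7 and 8 highest in their group. No pair of libraries within a group agreed within sampling noise, with chi-square per degree of freedom at 11.9 or more. In the CD44 sort check Lef1, a transcription factor of naive T cells, fell in the CD44+ libraries by 1.78 ± 0.39 on the log2 scale (SE; adjusted p = 0.0353), and S1pr1, the receptor for lymphoid tissue exit, fell by 1.64 ± 0.37 (adjusted p = 0.0433). Cd44 itself stood at 157 ± 94.5 CPM in CD44+ and 81.2 ± 30.2 CPM in CD44- libraries (SD, n = 7 each) without a call (adjusted p = 0.303). The 11 usable T cell markers summed to 11802 to 15042 CPM in CD44+ and 9014 to 15788 CPM in CD44- libraries, with none at 0. The alpha-beta receptor constant genes Trac, Trbc1 and Trbc2, in the same list of 14, had an exon length of 0 and were left out. None of the 11 was called, with a median log2 fold change of 0.06. Among them Cd4 stood at 38.8 ± 22.2 CPM in CD44+ and 166 ± 157 CPM in CD44- libraries (a log2 fold change of -2.10 ± 0.57, adjusted p = 0.0950). Markers of germinal centre B and plasma cells summed to 3958 to 8177 CPM in CD44+ against 413 to 3288 CPM in CD44- libraries, without overlap, and 2 of the 8 tested, Jchain and Mzb1, rose.

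Between the sorts 2 translation factor genes fell in CD44+ cells and none rose. They were Eef1a1, the carrier of aminoacyl-tRNA, and Eif3e, a subunit of eIF3. That is 2 of the 57 members with enough reads to test, or 3.51%, beside 0.767% of all 8343 genes called in either direction, 0.467% called lower and 0.3% called higher. At an unadjusted p under 0.05 there were 2 members higher and 11 lower, beside 5.69% and 7.66% of all genes. The median log2 fold change of the 57 was -0.47, with 39 of them negative, while over all genes the median was 0.03 and 48.9% were negative. The standard error of the log2 fold change was larger between the sorts than between diets for all 57, so a gene not called between the sorts is not shown to be equal in them. In a bulk sort, fewer cells of a type and less RNA per cell cannot be told apart.

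Eef1a1 (ENSMUSG00000037742, chr9:78478449-78489151, minus strand, in the tables' GRCm38 coordinates as for the genes below) ranged from 2017 to 3186 CPM in the 7 CD44+ libraries, with a median of 2348. In the CD44- libraries it ranged from 3194 to 16075 CPM, with a median of 10597. The ranges did not overlap, although the lowest CD44- library, replicate 8, lay just above the highest CD44+ library, and replicate 7 followed at 4383 CPM. The means were 2507 ± 487 and 9473 ± 4436 CPM (SD, n = 7 each), a difference of -1.92 ± 0.29 on the log2 scale (SE; adjusted p = 0.00342). CD44- replicates 7 and 8 are also those with the highest intronic share, 27.0% and 25.6%, and the part of RNA quality in the result was not tested. The log2 fold change was -2.04 without CD44- replicate 7, -2.06 without replicate 8 and -1.90 without replicate 2. CD44- replicate 5 had both the highest Eef1a1 and the highest germinal centre B and plasma cell sum of its group, and the part of those cells in the result was not tested. With unique reads alone, which leave out reads shared with the many Eef1a1 pseudogenes, the difference was -1.87 (adjusted p = 0.00457).

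Eif3e (ENSMUSG00000022336, chr15:43250058-43282719) ranged from 285 to 438 CPM in CD44+ libraries, with a median of 387. In CD44- libraries it ranged from 592 to 2213 CPM, with a median of 914. Every CD44+ library was below every CD44- library, and the gap between the groups was wider than for Eef1a1. The log2 fold change was -1.72 ± 0.28 (SE; adjusted p = 0.00523), from means of 364 ± 71.1 and 1197 ± 549 CPM. The other 13 subunit genes of eIF3 were not called. Eif3h, another of its subunits, had a log2 fold change of -1.24 (adjusted p = 0.270), Eif3d, which contacts mRNA caps, -1.38 (adjusted p = 0.490), and the scaffold Eif3a -0.46 (adjusted p = 0.675). Eif3k stood at 1053 ± 155 CPM in CD44+ and 949 ± 206 CPM in CD44- libraries, a log2 difference of 0.15 ± 0.21. Over the 14 genes the log2 fold changes ran from -1.72 to 1.44, and 11 were negative. The top of that range, Eif3j1, had 42.7% unique reads, and its near copy Eif3j2 had almost none.

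**Figure D1:**
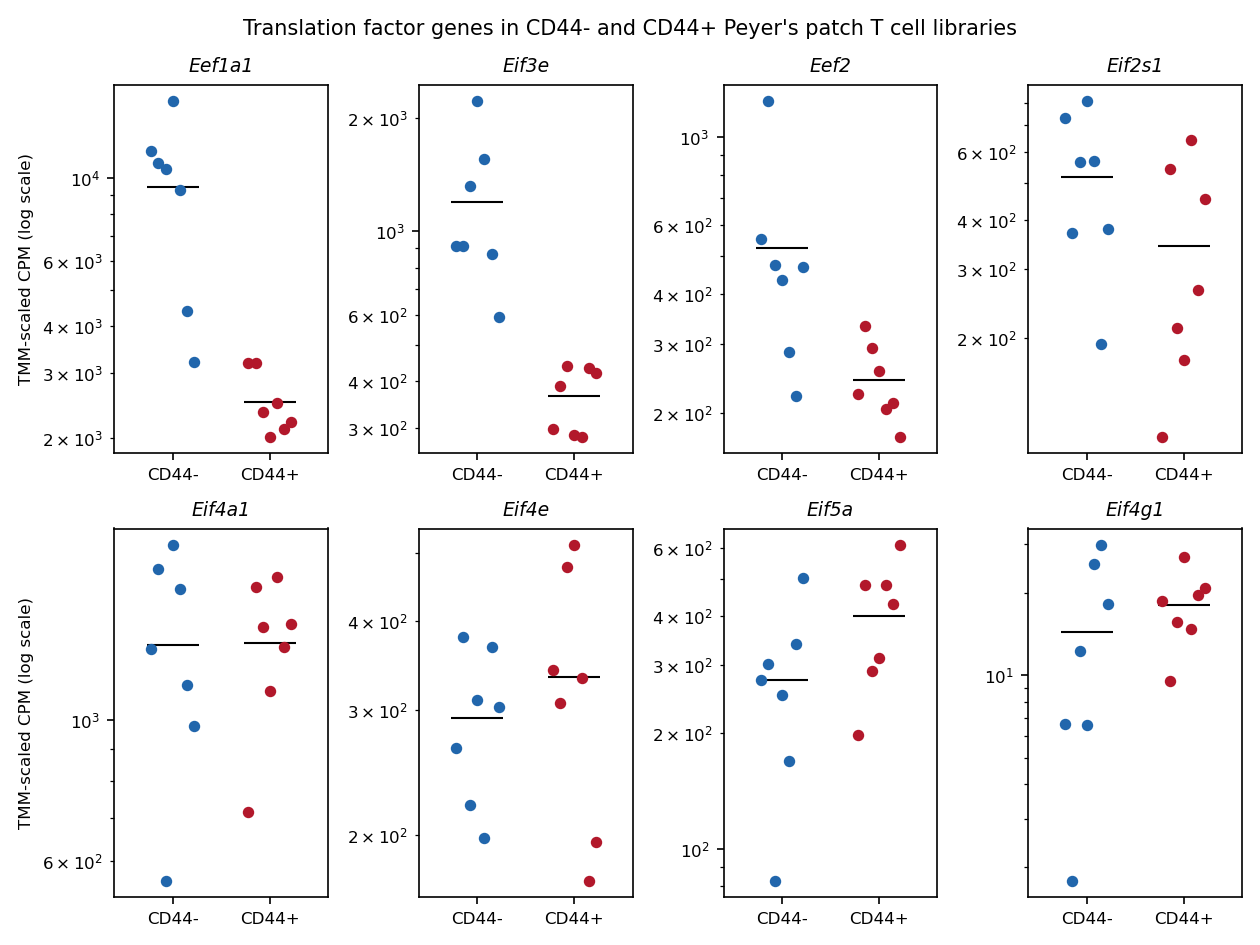
TMM-scaled CPM (log scale) of 8 translation factor genes in each of the 7 CD44- (blue) and 7 CD44+ (red) libraries, with a bar at each group's mean. The groups do not overlap for Eef1a1 and Eif3e and overlap for the other genes plotted.

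None of the remaining elongation factors was called. Eef1g, the gamma subunit of the eEF1B exchange factor, ranged from 594 to 1225 CPM in CD44+ and from 1003 to 2141 CPM in CD44- libraries, a log2 fold change of -0.92 ± 0.23 that missed the threshold (adjusted p = 0.0736). It was called with limma-voom (adjusted p = 0.0479), with all 4 groups in one fit (0.0033), without CD44- replicate 8 (0.0499) and without CD44+ replicate 2 (0.0424). Its partners Eef1b2 and Eef1d had log2 fold changes of -0.10 and -0.09 (adjusted p = 0.916 and 0.922). The translocase gene Eef2 ranged from 174 to 332 CPM, with a median of 224, in CD44+ libraries and from 221 to 1234 CPM, with a median of 470, in CD44- libraries. Its groups overlapped and its log2 fold change of -1.11 ± 0.33 was not called (adjusted p = 0.123). Eif5a, which frees ribosomes stalled at proline-rich stretches and carries the hypusine modification, had a median of 432 CPM in CD44+ and 274 CPM in CD44- libraries, with ranges of 197 to 611 and 82.8 to 503 CPM (a log2 fold change of 0.55 ± 0.35, adjusted p = 0.552). Eef2k, the kinase that inactivates eEF2, was near the detection limit, with medians of 1.78 and 2.28 CPM and a log2 fold change of -0.78 ± 0.81 (adjusted p = 0.757). Of the 10 elongation genes 7 were tested, 1 fell and none rose.

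All 4 genes for delivery of the initiator tRNA had negative log2 fold changes and none was called. Eif2s1, the subunit of eIF2 that stress kinases phosphorylate, ranged from 112 to 642 CPM in CD44+ and from 193 to 807 CPM in CD44- libraries (log2 fold change -0.59 ± 0.39, adjusted p = 0.569). Eif2s2 had 82.4 to 152 CPM in CD44+ and 156 to 299 CPM in CD44- libraries. These ranges did not overlap, yet its log2 fold change of -0.91 ± 0.28 was not called (adjusted p = 0.138). Eif2s2 was called with DESeq2 (adjusted p = 0.0368), from total gene reads (0.0488) and with all 4 groups in one fit (0.0081), and in no other setting. Eef1a1, Eif3e and Eif2s2 were the 3 of 57 members lower in every CD44+ than in every CD44- library, beside 0.36% of all genes, and 0 members were higher in this way, beside 0.396%. Only 31.4% of the Eif2s2 reads were unique. The 5 eIF2B genes had a median log2 fold change of -0.85 with none called. Among the eIF2 kinases Eif2ak2, the sensor of double-stranded RNA, ranged from 1.67 to 42.1 CPM in CD44+ and from 0.167 to 38.3 CPM in CD44- libraries (log2 fold change 0.83 ± 1.04, adjusted p = 0.804). Eif2ak3 and Eif2ak4 had too few reads to test.

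In the eIF4F group 10 of 11 genes were tested and none was called. The helicase gene Eif4a1 ranged from 715 to 1671 CPM in CD44+ libraries (median 1400) and from 559 to 1877 CPM in CD44- libraries (median 1292). Its log2 fold change was 0.01 ± 0.26 (adjusted p = 0.993), a sign that turned without the filter on low counts, from total gene reads and when some single libraries were left out. Its paralogue Eif4a2 stood at 360 ± 154 and 627 ± 232 CPM (a log2 fold change of -0.80 ± 0.30, adjusted p = 0.249). Eif4e ranged from 173 to 512 CPM in CD44+ and from 198 to 380 CPM in CD44- libraries (log2 fold change 0.19 ± 0.29, adjusted p = 0.841, with the opposite sign from total gene reads). Eif4g1 ranged from 9.50 to 27.1 and from 1.78 to 29.8 CPM (a log2 fold change of 0.32 ± 0.67, adjusted p = 0.887). Eif4g2, the scaffold that lacks the eIF4E site, had 122 ± 51.0 CPM in CD44+ and 369 ± 278 CPM in CD44- libraries (log2 fold change -1.59 ± 0.43, adjusted p = 0.0920). The lowest log2 fold change of all members was that of Eif4e3 at -2.89 ± 0.92 (adjusted p = 0.153), and the highest that of the eIF4E transporter Eif4enif1 at 2.50 ± 0.98 (adjusted p = 0.261). Both had few unique reads, 12.2% and 21.4%, and both overlap another gene in the genome.

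The remaining tested members were start site factors, subunit joining factors, methyltransferases and the genes taken in by name, and none was called. Start site factors Eif1 and Eif1b had log2 fold changes of 0.58 and 0.54 and Eif5, the GTPase activator of eIF2, -1.34. Eif6, which keeps the large subunit apart until needed, had 1.42 (adjusted p = 0.338). The 7 untested members were Eif2ak3, Eif2ak4, Eif4ebp3, Eif4e1b, Eef1a2, Eefsec and Eif5a2.

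**Figure D2:**
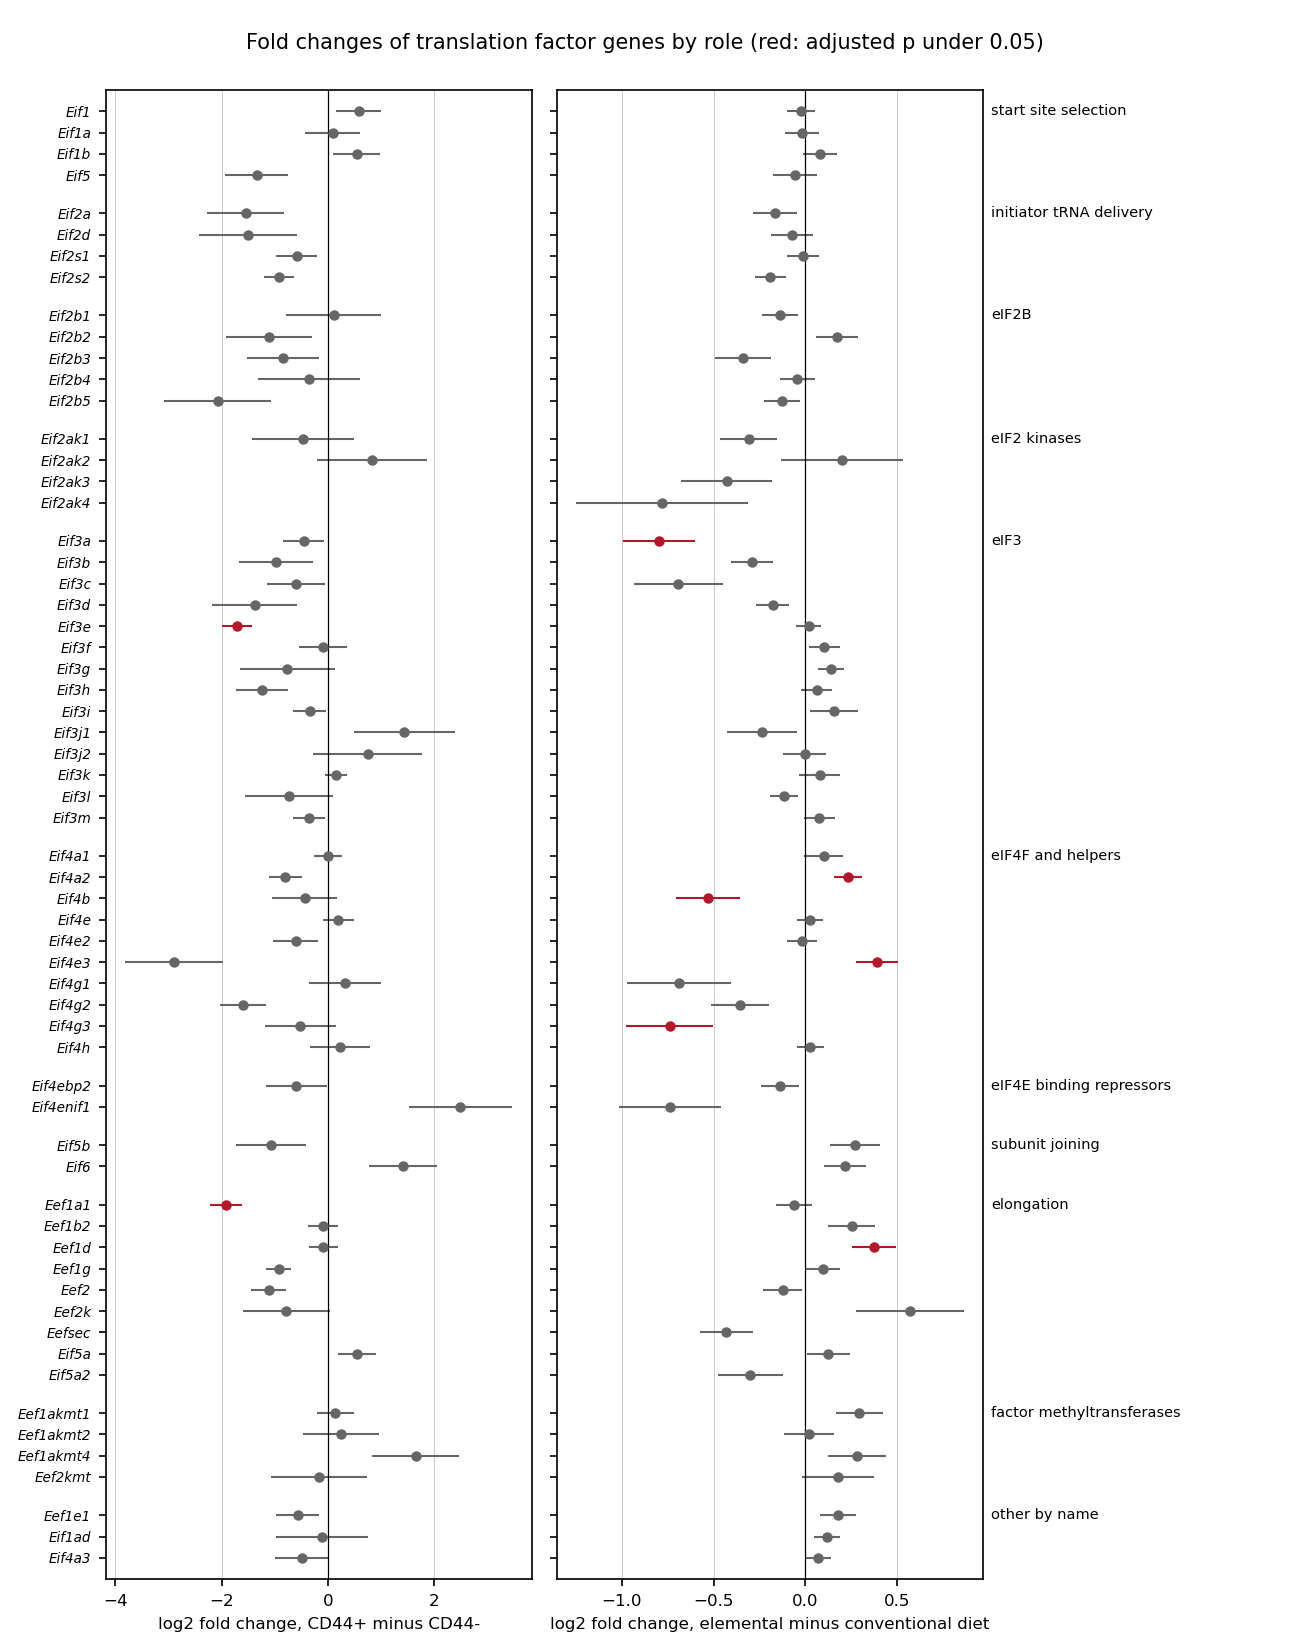
Log2 fold changes (points) with their standard errors (bars) for each tested translation factor gene, ordered by role, for CD44+ minus CD44- (left) and elemental minus conventional diet (right); the axes differ in scale. Red points passed an adjusted p of 0.05: 2 on the left, both negative, and 6 on the right, 3 in each direction.

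Other genes of the translation pathway were read from a list of 46, including poly(A)-binding proteins, release factors, the mTOR complexes and the enzymes of hypusine and diphthamide. Of 39 tested none was called between the sorts, with a median log2 fold change of -0.22. Mtor stood at 2.09 ± 1.04 and 4.53 ± 5.73 CPM (a log2 fold change of -1.11), Myc at 8.08 ± 7.19 and 10.1 ± 7.85 CPM (-0.32), the eIF4A inhibitor Pdcd4 at 86.4 ± 19.0 and 153 ± 55.5 CPM (-0.83) and the eIF4E inhibitor Eif4ebp1 at 3.71 ± 1.25 and 2.14 ± 1.61 CPM (0.80), in CD44+ and CD44- libraries. The mitochondrial translation factors had none of 7 called, with a median of -1.04. Ribosomal protein genes had 2 of 80 called, both lower: Rpl4 (log2 fold change -2.39) and Rpl5 (-1.84), while the median of the 80 was -0.04. None of the 19 tested cell cycle genes was called.

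The calls of Eef1a1 and Eif3e held in all 9 other settings tried and in each of the 14 fits without 1 library, with log2 fold changes from -2.13 to -1.74 and from -1.83 to -1.49. The count of members called rose with DESeq2 to 1 higher (Eif4enif1) and 5 lower (adding Eif4e3, Eif4g2 and Eif2s2). A fit over all 4 groups, which shares 1 estimate of spread per gene with the CD4+ libraries, called 2 higher and 9 lower.

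Between diets few translation factor genes were called. In CD4+ cells of the elemental diet 3 members rose, Eif4e3, Eef1d and Eif4a2, and 3 fell, Eif3a, Eif4g3 and Eif4b, out of 61 tested. This is 9.84% of members, below the 17.4% of all 11938 genes tested that were called, of which 9.68% rose and 7.75% fell. The median log2 fold change of the members was -0.01, as over all genes at -0.01. At an unadjusted p under 0.05 there were 4 members higher and 11 lower, beside 17.1% and 16.7% of all genes. With plain library sizes the median over all genes moved to -0.13 and the calls over all genes to 898 higher and 1097 lower, from 1156 and 925, so signs of small differences depend on the scaling.

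The rises were small. Eif4e3, a divergent cap-binding protein (ENSMUSG00000093661, chr6:99625135-99666771), ranged from 13.6 to 16.5 CPM on the conventional diet (median 15.7) and from 16.9 to 24.1 CPM on the elemental diet (median 20.1). It was the only member whose groups did not overlap, beside 4.82% of all genes higher without overlap, and 0 members were lower without overlap, beside 2.35%. Its log2 fold change was 0.39 ± 0.11 (SE; adjusted p = 0.0305), but with unique reads alone, the 12.2% not shared with other genes, no call was made (0.54, adjusted p = 0.229). Eif4e3 lies within the same stretch as Gm20696 on the same strand.

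Eef1d, the delta subunit of the eEF1B exchange factor (ENSMUSG00000055762, chr15:75894205-75909556), ranged from 467 to 778 CPM on the conventional diet (median 553) and from 680 to 924 CPM on the elemental diet (median 777). Conventional replicates 3 and 6 reached the elemental range. Its log2 fold change was 0.37 ± 0.12 (adjusted p = 0.0411). The helicase gene Eif4a2 (ENSMUSG00000022884, chr16:23107444-23114136) ranged from 196 to 229 CPM and from 226 to 285 CPM, overlapping at the edge, with a log2 fold change of 0.23 ± 0.08 (adjusted p = 0.0462). The other exchange subunits Eef1b2 and Eef1g had log2 fold changes of 0.25 and 0.10 (adjusted p = 0.183 and 0.478).

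The falls were larger. Eif3a, the largest scaffold subunit of eIF3 (ENSMUSG00000024991, chr19:60761116-60790693), ranged from 24.3 to 69.4 CPM on the conventional diet (median 47.0) and from 22.8 to 35.2 CPM on the elemental diet (median 26.5). Of the conventional libraries 5 lay above all elemental ones, and replicate 6 lay among them at 24.3 CPM. The log2 fold change was -0.80 ± 0.20 (adjusted p = 0.0133). Eif4g3, an eIF4G paralogue (ENSMUSG00000028760, chr4:137993022-138208508), ranged from 8.09 to 20.1 CPM and from 4.45 to 10.1 CPM, with a log2 fold change of -0.74 ± 0.24 (adjusted p = 0.0425). Eif4b, which stimulates the eIF4A helicase (ENSMUSG00000058655, chr15:102073773-102097173), ranged from 87.7 to 190 CPM (median 149) and from 80.8 to 128 CPM (median 98.1), with a log2 fold change of -0.53 ± 0.17 (adjusted p = 0.0484). Conventional replicate 6 was again at the elemental level, at 87.7 CPM.

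**Figure D3:**
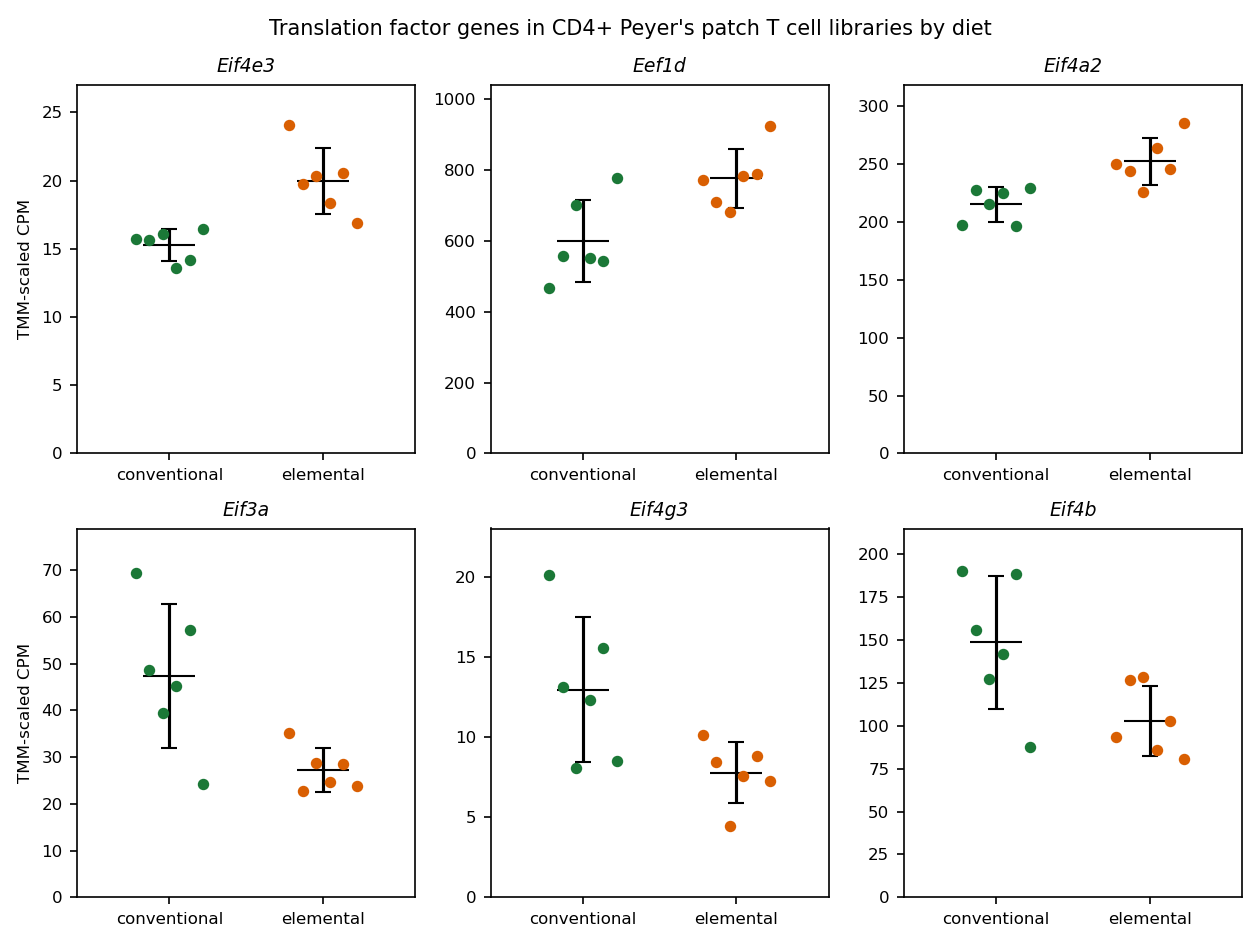
TMM-scaled CPM of the 6 translation factor genes called between diets in each of the 6 conventional (green) and 6 elemental (orange) libraries, with mean and SD (bars). The groups are apart for Eif4e3 and overlap for the other 5, and for Eif3a and Eif4b the lowest conventional point is replicate 6.

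Several abundant or regulatory members were not called between diets, and their groups overlapped. Eef1a1 ranged from 20772 to 22212 CPM on the conventional and from 18028 to 24635 CPM on the elemental diet (log2 fold change -0.06 ± 0.10, adjusted p = 0.678). Eef2 ranged from 4903 to 6205 and from 4538 to 6414 CPM (-0.12 ± 0.11, adjusted p = 0.419), and Eif5a from 805 to 1307 and from 965 to 1357 CPM (0.13 ± 0.12, adjusted p = 0.462). Eif4e ranged from 107 to 121 CPM and 110 to 134 CPM (0.02 ± 0.07, adjusted p = 0.836) and Eif2s1 from 122 to 158 CPM and 119 to 156 CPM (-0.01 ± 0.09, adjusted p = 0.930); both signs turned in other settings. Eif4a1 ranged from 667 to 1026 CPM and from 737 to 949 CPM (0.10 ± 0.11, adjusted p = 0.530), turning sign with plain library sizes. A p above the threshold does not show that these genes were equal.

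Further members were not called. Eif4g1, the main eIF4G scaffold, ranged from 18.6 to 68.3 CPM on the conventional diet (median 50.3) and from 15.3 to 39.5 CPM on the elemental diet (median 30.2), a log2 fold change of -0.69 ± 0.28 that was not called (adjusted p = 0.108). Eif3c, which with Eif3a forms the core of eIF3, was similar at -0.69 ± 0.24 (adjusted p = 0.0638), and so was Eif4enif1 at -0.74 ± 0.28 (adjusted p = 0.0749). In both Eif3c (33.1 CPM) and Eif4g1 (18.6 CPM) the lowest conventional library was replicate 6. Eef2k had medians of 6.03 and 11.1 CPM, with ranges of 3.53 to 10.4 and 4.11 to 13.3 CPM on the conventional and elemental diets (0.57 ± 0.29, adjusted p = 0.179). Eif2ak2 ranged from 1.28 to 3.42 and from 1.53 to 3.99 CPM (0.20 ± 0.33, adjusted p = 0.697). Eefsec, the elongation factor for selenocysteine, had a log2 fold change of -0.43 ± 0.15 (adjusted p = 0.0527). Eif4ebp3, Eif4e1b and Eef1a2 had too few reads to test.

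The diet log2 fold changes tended to be lower in members with a longer annotated exon length. Of the 20 members with more than 4000 bases of exon 16 were negative, with a median log2 fold change of -0.30, while of the 15 under 2000 bases 1 was negative, with a median of 0.08. The 26 in between had a median of -0.02. The 3 that fell, Eif3a, Eif4b and Eif4g3, all have more than 4000 bases of exon, and the 3 that rose have between 2000 and 4000. Over the 61 members the correlation of log2 fold change with log2 exon length was r = -0.46 (Spearman's rho = -0.45). The value is a description across genes that share the same 12 libraries, and every r given here uses log2 exon length. All tested genes gave medians of -0.21, 0.01 and 0.17 for the same 3 classes from long to short and r = -0.27 (rho = -0.36), so the trend was not confined to translation factors. Between the CD44 sorts the members gave r = -0.07 (rho = -0.14) with medians of -0.52, -0.57 and -0.35 from long to short, and all genes r = -0.15 (rho = -0.16) with medians of -0.12, -0.07 and 0.34.

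**Figure D4:**
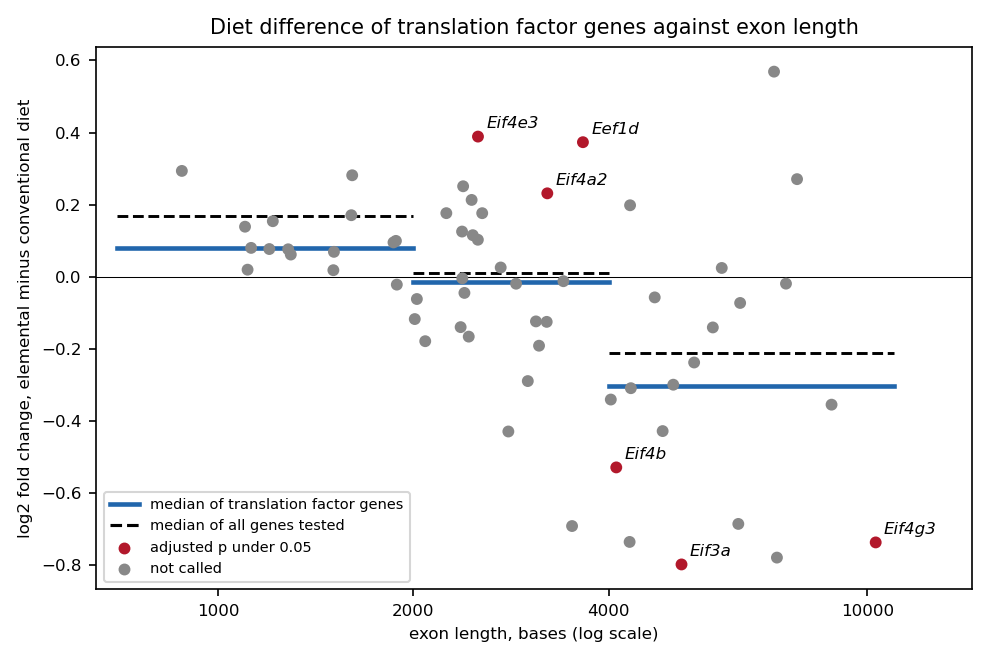
Log2 fold change, elemental minus conventional diet, against exon length in bases (log scale) for the 61 tested translation factor genes; red points passed an adjusted p of 0.05. Blue lines are the medians of these genes and dashed lines those of all genes tested, in 3 length classes, and both step down from short to long genes.

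Markers of other cells also differed between the diet groups. The 14 epithelial markers summed to 996 to 1944 CPM in elemental and 86.1 to 1048 CPM in conventional libraries, with 7 higher, and the highest conventional sum was that of replicate 6. The 12 myeloid and dendritic markers summed to 909 to 1785 CPM against 451 to 611 CPM, with 11 higher and no overlap. Germinal centre B and plasma cell markers summed to 408 to 875 CPM against 960 to 2037 CPM, with 7 of 10 lower, and 18 of 20 tested cell cycle genes fell. Of the 11 usable T cell markers 5 fell and none rose (4136 to 4749 CPM summed on the elemental and 4546 to 5197 CPM on the conventional diet, with a median log2 fold change of -0.22). None of the markers in these lists was at 0, and their part in the 6 member calls was not tested.

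Of 43 tested genes of the wider pathway 1 rose and 4 fell with the elemental diet, with a median log2 fold change of -0.12. Dph5, an enzyme of the diphthamide residue on eEF2, rose (0.51 ± 0.12, adjusted p = 0.00986). The mTOR complex subunit Rictor (-0.91), Tsc1 of the complex that restrains mTOR (-0.89) and the poly(A)-binding protein Pabpc1 (-0.60) fell, as did the release factor Etf1 (-0.33 ± 0.07, adjusted p = 0.0072). Mtor stood at 6.06 ± 2.00 and 6.18 ± 1.31 CPM, Myc at 15.4 ± 4.50 and 16.6 ± 4.06 CPM, Pdcd4 at 105 ± 13.8 and 121 ± 25.2 CPM and Eif4ebp1 at 14.3 ± 2.16 and 12.8 ± 2.43 CPM in elemental and conventional libraries, none of them called. None of the 10 mitochondrial factors and none of the 81 ribosomal protein genes was called, the latter with a median of 0.24.

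The diet calls differed in how often they held when a library was left out. Eif3a was called in each of the 12 fits without 1 library, with log2 fold changes from -0.93 to -0.65, Eif4e3 in 7, Eef1d in 4, Eif4g3 and Eif4b in 3 each and Eif4a2 in 2. The log2 fold changes of these 5 kept their sign, from 0.33 to 0.43, 0.32 to 0.46, -0.84 to -0.56, -0.64 to -0.44 and 0.19 to 0.26. Without conventional replicate 6 the count grew to 6 members higher and 10 lower, among them all 6 named above. It shrank to at most 1 higher and at most 2 lower when any of conventional replicates 1, 2, 4 and 5 or of elemental replicates 1, 4, 5 and 6 was left out. Of the 9 other settings Eif3a and Eef1d were called in 8, Eif4g3 in 7, Eif4b in 5, Eif4e3 in 4 and Eif4a2 in 3.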

How the data were processed

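The deposited tables give, per gene and library, counts of reads in exons, unique exon reads, reads over the whole gene and intron reads, on GRCm38 per the submitters' processing notes. For the aligner and the counter, nothing is given in the sources used here. The deposited total exon read counts entered the tests. Genes with an exon length of 0 in the tables (3759) were not tested. The sorts and the diets were fitted apart with edgeR 4.0.16 in R 4.3.3 (TMM scaling, filterByExpr, robust quasi-likelihood F test, two-sided, Benjamini-Hochberg over all genes tested); a gene was called at an adjusted p under 0.05, and each SE was taken as the log2 fold change over the root of F. CPM are TMM-scaled within a comparison. DESeq2 1.42.0 and limma 3.58.1 served as alternatives, with RLE and plain scaling, no filter, unique exon reads, total gene reads, all 4 groups in one fit, a replicate block and leaving out each library. The fitting code was tested on simulated counts.

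The members and gene lists were chosen with earlier results of these data known. Values are named for called members at a mean log2 CPM from 2 upward, up to 8 in each direction, and for Eif4e, Eif4a1, Eif4g1, Eif2s1, Eif2ak2, Eif5a, Eef1a1, Eef2 and Eef2k; from other lists, for up to 4 called genes and Mtor, Myc, Pdcd4 and Eif4ebp1. Other genes singled out were chosen after their values were seen. Of the members 19 overlap another gene and 11 have under 50% unique reads, and the strand setting of the counting is not given. Promoters are from RefSeq on GRCm38.p6. Lists also included B cell markers, of which none of 9 was called between the sorts (625 to 2145 CPM summed in CD44+ and 271 to 1408 CPM in CD44-) and 3 of 11 fell with the elemental diet.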

Additional observations from a re-analysis of the deposited data

Results flagged for a closer look

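In each group the highest and lowest library was compared with its nearest neighbour by Dixon's ratio for the named genes and the summed share; of 54 group values 5 stood apart, and chance gives about 1 in 20. Eef2 stood at 1234 CPM in CD44- replicate 2, the next library being at 554 CPM. Eef2k stood at 8.15 CPM in CD44+ replicate 4, the next at 2.21 CPM. Eif2ak2 stood at 38.3 CPM in CD44- replicate 6, the next at 9.12 CPM. The 64 genes together took 1.62% of exon reads in CD44+ replicate 2, the next library being at 1.36%. Eif4e stood at 134 CPM in elemental replicate 6, the next at 118 CPM.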

How the results depend on the processing

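Between the sorts 64 genes were called, and 401 with DESeq2, 1748 with all 4 groups in one fit, 101 from total gene reads and 36 to 87 without 1 library, falling under 43 without CD44- replicate 4 or CD44+ replicate 5, 6 or 7. Members called higher were 1 with DESeq2 and 2 with all 4 groups, and 0 to 0 without 1 library; members called lower were 5, 9 and 2 to 3. Signs turned for Eif4a1 without the filter (-0.0090), from total gene reads (-0.16) and without 1 library (-0.12 to 0.12), for Eef2k (0.12) and Eif4e (-0.16) from total gene reads. Between diets 2081 genes were called, and 2 with all 4 groups in one fit, 4095 with limma-voom and 1299 to 3865 without 1 library: 1299 without conventional replicate 4, 1316 without elemental replicate 4 and 3865 without conventional replicate 6. Members called higher were 0 with all 4 groups, 8 with limma-voom, 1 without the filter, 1 with plain library sizes and 0 to 6 without 1 library; members called lower were 7 with DESeq2, 0 with all 4 groups, 11 with limma-voom, 1 from total gene reads and 1 to 10 without 1 library. The median of the members was -0.13 with plain library sizes. Signs turned for Eif2s1 with limma-voom (0.0028) and without 1 library (-0.066 to 0.039), for Eif4a1 with plain library sizes (-0.00042), and for Eif4e with plain library sizes (-0.090) and without 1 library (-0.022 to 0.042). The fit over all 4 groups shares 1 estimate of spread per gene between the CD4+ and the CD44 libraries, and its filter and scaling also use all libraries. The causes of these changes were not tested.

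With the replicate number as a block 37 genes were called between the sorts, Eef1a1 and Eif3e among them. Between diets 1 member was called higher in that fit, Eef1d, while Eif3a, Eif4g3 and Eif4b were all still called lower. Same-numbered libraries correlated from -0.042 to 0.12 between the sorts (7 pairs) and from -0.14 to 0.27 between diets (6 pairs), and 1 pair in each comparison matched best with its own number, so the numbers were not read as pairing.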
